A study of Mus musculus with 20 samples.

Results

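miR-132 and miR-212 are a pair of microRNAs cut from 1 primary transcript, and each of their hairpins gives a 3p and a 5p mature arm. The 4 arms, miR-132-3p, miR-132-5p, miR-212-3p and miR-212-5p, were taken by name (mmu-miR-132-3p, mmu-miR-132-5p, mmu-miR-212-3p and mmu-miR-212-5p in the files) from the small RNA counts of cultured mouse midbrain neurons, where they were 4 of the 1886 mature miRNA lines counted in each of 20 libraries. All 4 passed the filter on low counts and were among the 542 miRNAs tested. The cultures came from the ventral mesencephalon of C57Bl6/J mouse embryos at E12.5 and were grown without serum in Neurobasal-A with B27. There were 4 groups of 5 libraries: 5 days in vitro (DIV5) with GDNF at 10 ng/ml in the medium, DIV5 without it (DIV5 control), 1 day in vitro (DIV1) with GDNF at the same dose, and DIV1 without it (DIV1 control). The study's design text sets GDNF against no GDNF at each day, and its title is about miR-182 and miR-183. The labels do not say whether replicates were separate cultures or animals, so a p-value here measures only the spread between these libraries.

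In mouse neurons the gene of this pair is a well known target of the transcription factor CREB, and its transcription rises with synaptic activity and with neurotrophins such as BDNF. miR-132 is known for promoting dendrite growth, and in the differentiation of mouse dopamine neurons it has been reported to repress the dopaminergic transcription factor Nurr1. GDNF, glial cell line-derived neurotrophic factor, signals through the receptor tyrosine kinase RET and its co-receptor GFRα1 and is a survival factor of midbrain dopaminergic neurons. A miRNA finds its targets mainly through its seed, bases 2 to 8 from the 5′ end, so arms with the same seed can share targets.

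The mature sequences are shown because the pair shares a seed on 1 side of the hairpin and not on the other. They are from RefSeq (table built on GRCm38.p6), where all 4 arms matched by name, and capitals mark the seed.
miR-132-3p: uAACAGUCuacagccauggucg
miR-212-3p: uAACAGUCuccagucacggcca
miR-132-5p: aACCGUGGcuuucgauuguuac
miR-212-5p: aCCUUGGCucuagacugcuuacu
The 3p arms have the same seed, and no other mature entry in that table has it. Their first 9 bases are identical, and 17 of 22 bases are identical in all. Counted from the 5′ end, miR-212-3p differs from miR-132-3p by A10C, C14U, U17C, U20C and G22A. The seeds of the 5p arms differ from each other and are shared with no other entry, and miR-212-5p is 23 bases long where the others have 22. Reads of the 3p arms can therefore be told apart only by bases from position 10 on.

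Both hairpins lie on the plus strand of mouse chromosome 11 (GRCm38), in intron 1 of the noncoding gene 1700016P03Rik, which has 3 exons. They are shown because each arm ratio given later compares the 2 mature arms of 1 hairpin. Capitals mark the 5p arm and then the 3p arm.
Mir212, chr11:75173388-75173478: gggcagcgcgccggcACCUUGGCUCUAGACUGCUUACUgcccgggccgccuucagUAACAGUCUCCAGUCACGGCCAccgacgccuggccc
Mir132, chr11:75173682-75173747: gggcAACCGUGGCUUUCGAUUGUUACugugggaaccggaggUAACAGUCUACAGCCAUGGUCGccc
Mir212 comes first on the transcribed strand, and 203 bases separate the hairpins. The start of Mir212 is 828 bases from the annotated start of the host gene, and the 2 hairpins together span 360 bases. Each arm is annotated at 1 locus, so no value has to be divided between gene copies.

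Levels are raw read counts scaled with TMM and given as CPM, a value proportional to a miRNA's share of the reads of its library. Library totals were 1781030 to 3983722 reads with GDNF at DIV5 and 1061619 to 4324505 in DIV5 controls, against 420118 to 1761023 with GDNF at DIV1 and 686793 to 1557885 in DIV1 controls. One read was worth 0.231 to 2.38 CPM. At DIV5, replicates 1 and 2 of both groups had fewer reads (1061619 to 1907937) and more reads without a feature (17.7% to 19.5%) than replicates 3 to 5 (2969524 to 4324505 reads, 9.51% to 13.3%). DIV5 control libraries 1 and 5 stood apart from the rest: 43 of the 542 tested miRNAs (7.93%) were at least 2-fold higher in both of them than in the mean of DIV5 control libraries 2, 3 and 4. No such count is given for other pairs of controls. Results on the pair that draw on the DIV5 controls are given with these 2 libraries and, where leaving them out moved them, without them. Libraries 1 and 5 were left out after the data were seen. They are the highest for both miR-132 arms, so leaving them out could only lower the control means of those arms.

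Markers of the labelled cell type were present. The 3 tested neuron markers (miR-124-3p, miR-128-3p and miR-129-2-3p) summed to 13162 to 18045 CPM with GDNF and 13198 to 22147 CPM without it at DIV5, against 4039 to 7336 CPM with GDNF and 3876 to 7245 CPM without it at DIV1. Of the 2 other neuron markers listed, miR-138-5p had 0 reads in all 20 libraries and miR-129-5p had at most 25. The 3 neural progenitor markers (miR-92b-3p, miR-17-5p and miR-20a-5p) summed to 18386 to 22990 CPM with GDNF and 13597 to 21884 CPM without it at DIV5, against 50921 to 70782 CPM with GDNF and 48772 to 69449 CPM without it at DIV1.

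Markers of other cell types were also measured. The 3 markers of endothelium and smooth muscle summed to 201.6 to 1793 CPM with GDNF and 448.5 to 1388 CPM without it at DIV5, against 2736 to 3209 CPM with GDNF and 2796 to 3937 CPM without it at DIV1. The 2 tested of 4 markers of astrocytes and microglia summed to 2722 to 3107 CPM with GDNF and 2486 to 3049 CPM without it at DIV5, against 2850 to 3463 CPM with GDNF and 2641 to 3302 CPM without it at DIV1. miR-219a-5p, a defining marker of the oligodendrocyte lineage, had 0 reads in every library and miR-338-3p had at most 3. RefSeq has miR-219a-5p at 2 hairpins, and how reads that match more than 1 place were counted is not given, so its count of 0 is uncertain. miR-128-3p, also at 2 hairpins there, had a mean of 5537 CPM. The 1 tested of 2 blood markers, miR-451a, had at most 21 CPM with GDNF and 17.8 CPM without it at DIV5, and at most 50.5 CPM with GDNF and 51.7 CPM without it at DIV1.

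miR-132-3p was the most abundant of the 4 arms in every group. With GDNF at DIV5 it had 572.7, 733.6, 729.9, 513.3 and 523.2 CPM in replicates 1 to 5, and in DIV5 controls 1988, 703.9, 624.2, 517.1 and 1058 CPM. At DIV1 it had 138.9, 201.3, 216.8, 179.1 and 319.8 CPM with GDNF, and 184.6, 187.8, 174.7, 157 and 266.4 CPM in controls. Every DIV5 library was above every DIV1 library, and DIV5 control libraries 1 and 5 were the highest of all 20. The means were 614.5 ± 109 CPM with GDNF at DIV5, 978.2 ± 600 CPM in DIV5 controls, 211.2 ± 67.4 CPM with GDNF at DIV1 and 194.1 ± 42.1 CPM in DIV1 controls (SD, n = 5 each). By mean level it ranked 107, 87, 177 and 182 among the 542 tested miRNAs in those groups.

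miR-132-5p, the opposite arm of the same hairpin, was the rarest of the 4. With GDNF at DIV5 it had 36.6, 50.8, 53, 47.2 and 45 CPM, and in DIV5 controls 145.2, 48.4, 46.7, 45.4 and 84.9 CPM. At DIV1 it had 9.72, 14.4, 9.97, 6.97 and 15.6 CPM with GDNF, and 9.43, 7.33, 12.6, 14.4 and 15.5 CPM in controls, which is 6 to 16 reads in each DIV1 library. As with miR-132-3p, no DIV1 library reached any DIV5 library, and DIV5 control libraries 1 and 5 were the highest. The means were 46.5 ± 6.36 CPM with GDNF at DIV5, 74.1 ± 43 CPM in DIV5 controls, 11.3 ± 3.57 CPM with GDNF at DIV1 and 11.8 ± 3.41 CPM in DIV1 controls (SD, n = 5 each).

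miR-212-3p, which has the seed of miR-132-3p, had 101.3, 104, 142.3, 116.8 and 138.7 CPM with GDNF at DIV5, and 142.8, 139.2, 112.3, 125.7 and 94.5 CPM in DIV5 controls. At DIV1 it had 45.8, 44, 66, 35.8 and 98.8 CPM with GDNF, and 24.9, 50.4, 53.1, 77.2 and 55.8 CPM in controls. DIV5 and DIV1 ranges did not overlap within a treatment, but DIV1 GDNF library 5 was above the lowest DIV5 control, which was library 5. The 2 DIV5 controls that were highest for miR-132 were not so for miR-212-3p: library 1 was the highest of its group by a small margin and library 5 the lowest. The means were 120.6 ± 19.1 CPM with GDNF at DIV5, 122.9 ± 19.9 CPM in DIV5 controls, 58.1 ± 25.3 CPM with GDNF at DIV1 and 52.3 ± 18.6 CPM in DIV1 controls (SD, n = 5 each).

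miR-212-5p, the opposite arm of that hairpin, had 115.8, 130.8, 206.5, 144 and 103 CPM with GDNF at DIV5, and 154.6, 146.1, 73.8, 121.1 and 116.6 CPM in DIV5 controls. At DIV1 it had 34.7, 36.8, 24.9, 41.8 and 52 CPM with GDNF, and 60, 32.1, 28, 39.3 and 46.5 CPM in controls. Every DIV5 library was above every DIV1 library, with DIV5 control library 3 the lowest at DIV5. The means were 140 ± 40.2 CPM with GDNF at DIV5, 122.4 ± 31.6 CPM in DIV5 controls, 38.1 ± 9.92 CPM with GDNF at DIV1 and 41.1 ± 12.7 CPM in DIV1 controls (SD, n = 5 each). miR-212-5p and miR-212-3p are neighbours in the order of levels in every group, and their ranges overlapped in each.

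**Figure D1:**
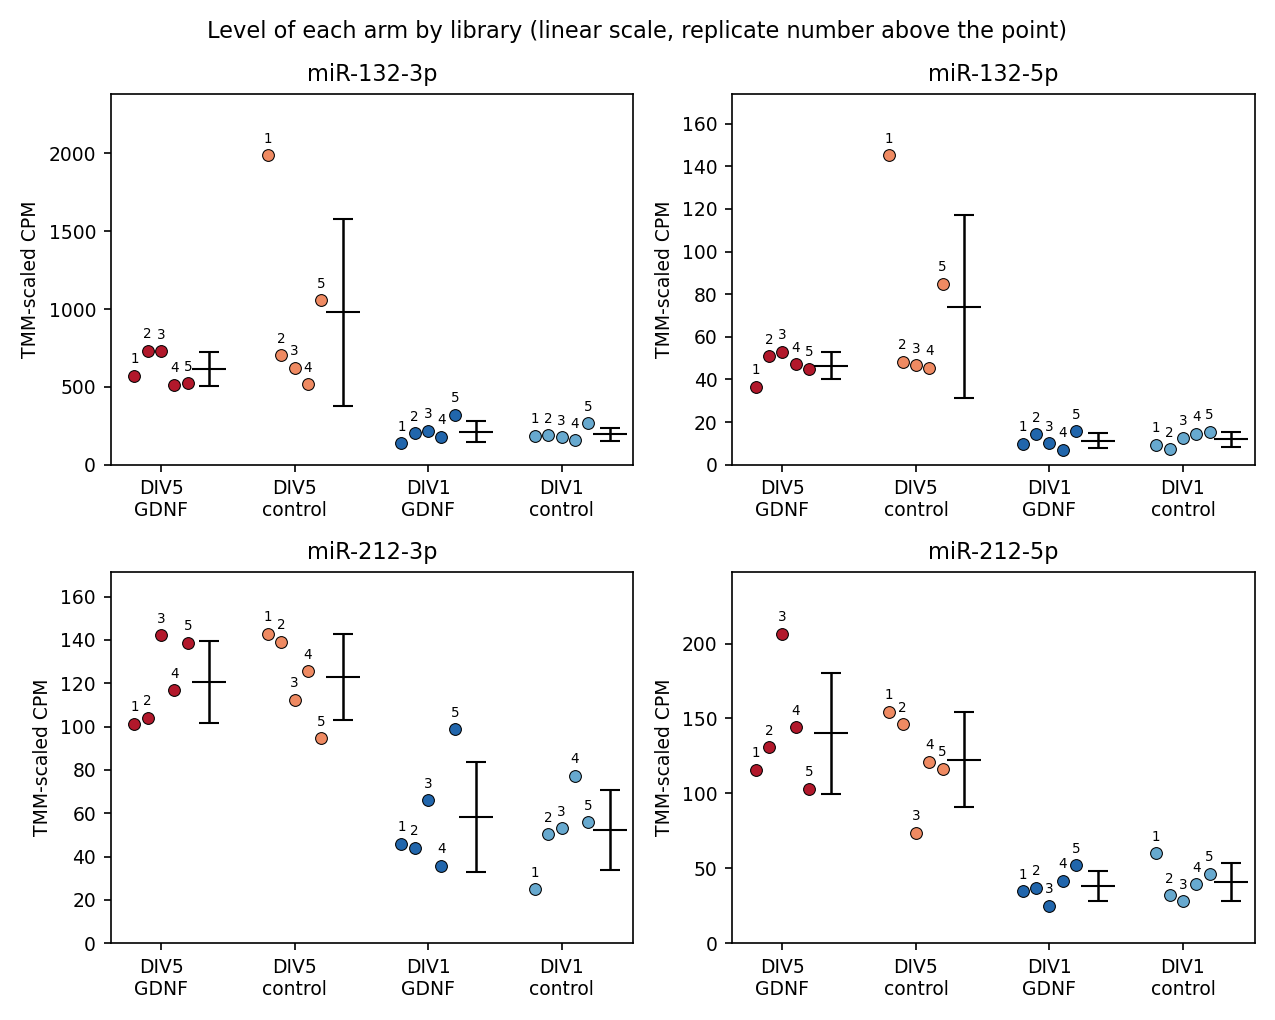
TMM-scaled CPM (linear axis from 0) of the 4 arms in the 20 libraries, by group; points are libraries with their replicate number, and the bar beside them is the mean ± SD of 5. The means of the DIV5 groups stand above those of the DIV1 groups for all 4 arms, and for both miR-132 arms DIV5 control libraries 1 and 5 stand above the other DIV5 libraries (1988 and 1058 CPM for miR-132-3p).

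All 4 arms rose between DIV1 and DIV5, with GDNF and without it. With GDNF, miR-132-5p was 4.23-fold and miR-212-5p 3.77-fold higher at DIV5 than at DIV1, and miR-132-3p was 2.93-fold and miR-212-3p 2.13-fold higher. Without GDNF, miR-132-5p was 6.43-fold, miR-132-3p 5.05-fold, miR-212-5p 2.94-fold and miR-212-3p 2.37-fold higher at DIV5. In edgeR's quasi-likelihood test, with Benjamini-Hochberg adjustment over the 542 miRNAs, the log2 fold changes with GDNF were 1.55 for miR-132-3p (SE 0.299, adjusted p = 0.000238), 2.08 for miR-132-5p (SE 0.331, adjusted p = 2.45e-05), 1.09 for miR-212-3p (SE 0.257, adjusted p = 0.00138) and 1.91 for miR-212-5p (SE 0.252, adjusted p = 2.47e-06). Without GDNF they were 2.34 for miR-132-3p (SE 0.305, adjusted p = 2.3e-06), 2.68 for miR-132-5p (SE 0.329, adjusted p = 8.3e-07), 1.25 for miR-212-3p (SE 0.258, adjusted p = 0.000333) and 1.56 for miR-212-5p (SE 0.247, adjusted p = 2.21e-05). The day comparisons with and without GDNF share no library. Under both treatments each arm was higher at DIV5 in 5 of 5 same-numbered pairs. That count adds nothing to the ranges, which lay apart, and the labels do not say that numbers match across days.

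Such a change was common in these cultures. With GDNF, 4 of 4 arms were called higher at DIV5, where 25.1% of the tested miRNAs were, and the ranges of 4 of 4 arms lay apart, as they did in that direction for 18.6% of the tested miRNAs. Without GDNF, 4 of 4 arms were called higher against 31.4% of the tested miRNAs, with ranges that lay apart for 4 of 4 arms against 20.1%. Counts in either direction were 52.4% of the tested miRNAs with GDNF and 60.7% without. By size of log2 fold change among the 542, miR-132-5p ranked 12 with GDNF and 15 without, miR-132-3p 29 and 23, miR-212-5p 17 and 58, and miR-212-3p 71 and 87.

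The levels are relative to the other miRNAs of a library. Scaled by library totals alone in place of TMM, the median log2 change of all tested miRNAs moved up by 0.15 with GDNF and by 0.25 without it, and the calls went to 166 higher and 117 lower with GDNF (136 and 148 with TMM) and to 228 higher and 111 lower without it (170 and 159 with TMM). All 4 arms stayed called higher at DIV5 under that scaling, for example with log2 changes for miR-132-3p of 1.70 with GDNF and 2.60 without it. Over the same days the summed neuron markers were higher and the summed progenitor markers and those of endothelium and smooth muscle lower at DIV5, with ranges that lay apart as given above, and their part in the change of the pair was not tested. In bulk RNA, more cells of a type and more of a miRNA per cell cannot be told apart.

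The size of the miR-132 change without GDNF rested partly on DIV5 control libraries 1 and 5. Without them the log2 change was 1.68 for miR-132-3p (edgeR adjusted p = 1.15e-06) and 2.05 for miR-132-5p (adjusted p = 5.94e-07), beside 1.55 and 2.08 with GDNF. For miR-212-3p it was 1.30 and for miR-212-5p 1.45 without those libraries. In DIV5 replicates 1 and 2 alone, with all DIV1 libraries kept, the change of miR-212-3p with GDNF was 0.86 and no longer passed (adjusted p = 0.0547).

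GDNF did not shift any of the 4 arms beyond the threshold at DIV5. miR-132-3p and miR-132-5p were both lower on average with GDNF, with the same log2 value of -0.67 (SE 0.288 and 0.279), an unadjusted p of 0.0304 and 0.0253 and an edgeR adjusted p of 0.239 and 0.230. miR-212-3p had a log2 value of -0.022 (95% interval -0.53 to 0.49, adjusted p = 0.994) and miR-212-5p of 0.20 (-0.28 to 0.68, adjusted p = 0.823). The ranges with GDNF and in controls overlapped for 4 of 4 arms; they lay apart for 0.923% of the tested miRNAs. Of the 542 miRNAs, 0.185% were called in this comparison, which is miR-182-5p alone, and 88 had an unadjusted p below 0.05. With the replicate number as a block, which treats same-numbered libraries as pairs, 3 miRNAs were called and none of the 4 arms. The count over all miRNAs also turned on single libraries: leaving out control library 2, 3 or 4 gave 43, 32 and 37, leaving out control library 1, control library 5 or the fifth GDNF library gave 2, and leaving out the first or the second GDNF library gave 0. In none of these was an arm of the pair called, the lowest adjusted p being 0.0783 for miR-132-3p without DIV5 control library 4.

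**Figure D2:**
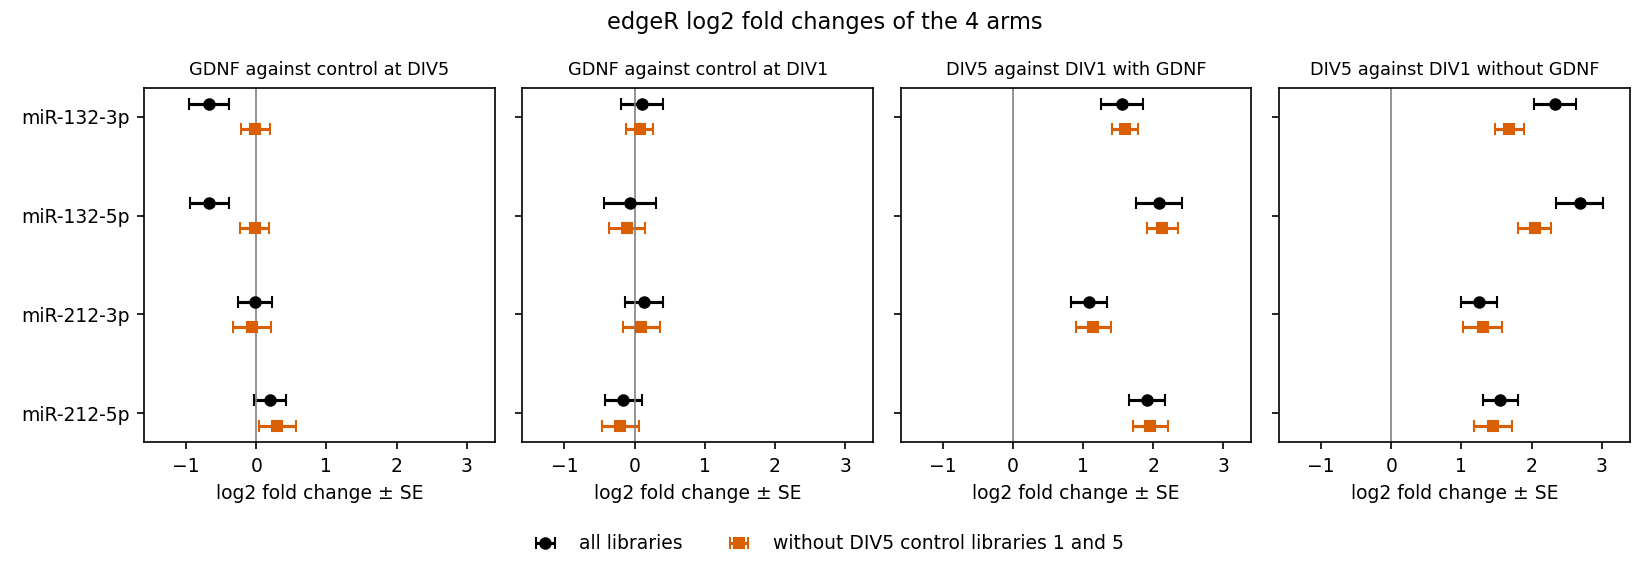
edgeR log2 fold changes ± SE of the 4 arms (rows) in 4 comparisons (panels), from all 20 libraries (black circles) and without DIV5 control libraries 1 and 5 (orange squares). The GDNF values of the miR-132 arms at DIV5 move from -0.67 to near 0 when those 2 libraries are left out, and the day values stay above 0 for all 4 arms.

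The lower miR-132 means with GDNF at DIV5 rested on the control libraries that stood apart, and more on library 1 than on library 5. Against the mean of DIV5 control libraries 2, 3 and 4, miR-132-3p was 3.23-fold higher in library 1 and 1.72-fold in library 5, and miR-132-5p was 3.10-fold and 1.81-fold higher. miR-212-3p was 1.14-fold and 0.752-fold, and miR-212-5p 1.36-fold and 1.03-fold, with both libraries below the miR-132 values. Counting miR-132-3p itself, 30 of the 542 tested miRNAs stood at least as high over the other controls in library 1 as it did. In library 5, 97 did, counted in the same way. The marker sums of these libraries differed from those of the other 3 controls as well. The progenitor markers summed to 13597 CPM in library 1 and 17325 CPM in library 5, the 2 lowest of the 10 DIV5 libraries, against 19562 to 21884 CPM in the other controls. The markers of astrocytes and microglia were also the 2 lowest at DIV5, with 2499 and 2486 CPM against 2742 to 3049 CPM. Those of endothelium and smooth muscle summed to 1388 CPM in library 1 and 448.5 CPM in library 5, above and below the 531.7 to 1121 CPM of the other controls. The neuron markers summed to 18681 CPM in library 1, inside the 13234 to 22147 CPM of the other controls, and to 13198 CPM in library 5, just below it. miR-451a, the blood marker, had 11.3 CPM in library 1 and 4.15 CPM in library 5, against 5.34 to 17.8 CPM. The progenitor sum was mostly miR-92b-3p, with a mean of 17925 CPM in DIV5 controls against 555 for miR-17-5p and 289 for miR-20a-5p. The sum for astrocytes and microglia was mostly miR-21a-5p, at 2641 CPM against 73.4 for miR-146a-5p. These smaller members had higher means in DIV5 controls than with GDNF (445, 245 and 33.5 CPM), and the main members lower means. The sums therefore do not show that each marker was low in libraries 1 and 5. The part of these cell types in the miR-132 values was not tested.

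Left out, those 2 libraries leave 3 DIV5 controls at 615.1 ± 93.7 CPM for miR-132-3p and 46.8 ± 1.49 CPM for miR-132-5p (SD, n = 3), beside 614.5 and 46.5 CPM with GDNF (n = 5). The log2 value of GDNF against control was then -0.012 for miR-132-3p and -0.019 for miR-132-5p, each with an edgeR adjusted p of 0.999, and it was -0.062 for miR-212-3p and 0.30 for miR-212-5p. Leaving out library 1 alone gave -0.24 for miR-132-3p (adjusted p = 0.895) and -0.27 for miR-132-5p (adjusted p = 0.858). Leaving out library 5 alone gave -0.64 for miR-132-3p and -0.61 for miR-132-5p (adjusted p = 0.631 each).

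The subsets of DIV5 libraries gave unequal values. In replicates 1 and 2 the log2 value with GDNF was -1.17 for miR-132-3p, -1.29 for miR-132-5p, -0.54 for miR-212-3p and -0.37 for miR-212-5p. In replicates 3 to 5 it was -0.29, -0.26, 0.27 and 0.55 in the same order of arms. None of these passed, and both miR-212 arms had opposite signs in the 2 subsets. Each subset holds 1 of the 2 controls that stood apart.

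**Figure D3:**
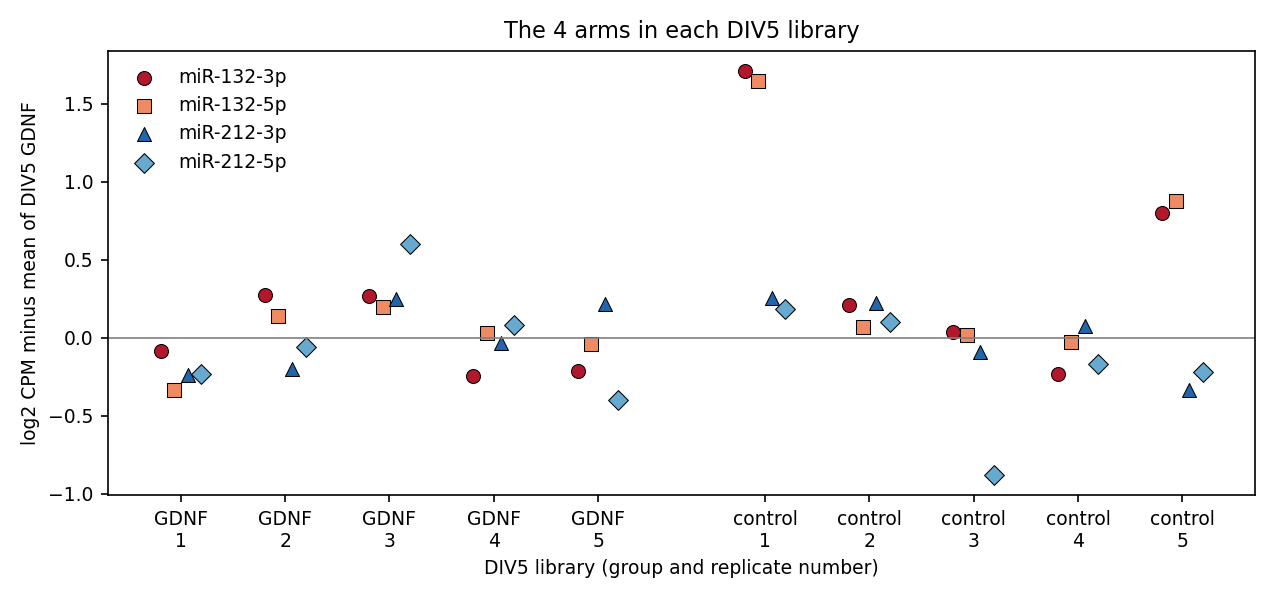
log2 CPM of each arm in the 10 DIV5 libraries, less the mean of that arm with GDNF at DIV5; the line at 0 is that mean. Both miR-132 arms stand at 1.71 and 1.65 in control library 1 and at 0.80 and 0.88 in control library 5, where the miR-212 arms stand between -0.34 and 0.26.

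At DIV1, too, none of the 4 arms passed the threshold for GDNF against control. The log2 values were 0.11 for miR-132-3p (95% interval -0.51 to 0.73), -0.067 for miR-132-5p (-0.84 to 0.71), 0.13 for miR-212-3p (-0.42 to 0.69) and -0.16 for miR-212-5p (-0.70 to 0.38). Of the 542 miRNAs, 0 (0%) were called by edgeR, DESeq2 or limma voom, with 7 at an unadjusted p below 0.05 in edgeR. The intervals reach at least 0.38 on the higher side and at least -0.42 on the lower side for each arm, so changes up to those sizes are not excluded. These ends are not a detection limit, since a call needed an adjusted p over 542 miRNAs.

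The GDNF effect at DIV5 less that at DIV1 was -0.78 for miR-132-3p (SE 0.415, adjusted p = 0.630), -0.60 for miR-132-5p (SE 0.467, adjusted p = 0.794), -0.16 for miR-212-3p (SE 0.361, adjusted p = 0.951) and 0.36 for miR-212-5p (SE 0.347, adjusted p = 0.867) on the log2 scale in edgeR. None was called, and 0 of the 542 miRNAs (0%) were called by edgeR, DESeq2 or limma voom, with 50 at an unadjusted p below 0.05 in edgeR. The same number is the day effect with GDNF less the day effect without it, so a difference in the rise of the pair between treatments was not shown either. Without DIV5 control libraries 1 and 5 it was -0.084 for miR-132-3p, 0.083 for miR-132-5p, -0.16 for miR-212-3p and 0.51 for miR-212-5p (edgeR adjusted p = 0.997 each). Without control library 1 alone it was -0.32 for miR-132-3p and -0.18 for miR-132-5p (adjusted p = 0.960 and 0.966).

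The arms of the 2 hairpins stood in different proportions. For miR-132, the 3p arm had more reads than the 5p arm in 20 of 20 libraries. Its geometric mean ratio was 13.1 with GDNF and 13 without it at DIV5, and 17.7 with GDNF and 16 without it at DIV1. The lowest library was at 10.5 and the highest at 24.2, both of them DIV1 controls with few 5p reads. For miR-212 neither arm led: the 3p arm had more reads in 11 of 20 libraries. Its ratio was 0.879 with GDNF and 1.02 without it at DIV5, and 1.46 with GDNF and 1.23 without it at DIV1. The 3p arm led in 1 of 5 libraries with GDNF and 2 of 5 controls at DIV5, and in 4 of 5 libraries of each DIV1 group. Ratios count reads of sequences of 22 or 23 bases, and how well each sequence enters a library was not measured, so the ratio of 2 arms in 1 library is not a ratio of molecules.

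Between the hairpins, miR-132-3p was above miR-212-3p in 20 of 20 libraries. The ratio was 5.08 with GDNF and 7.09 without it at DIV5, and 3.71 with GDNF and 3.85 without it at DIV1. On the 5p side the order was the opposite, with miR-132-5p below miR-212-5p in 20 of 20 libraries. That ratio was 0.340 with GDNF and 0.558 without it at DIV5, and 0.306 with GDNF and 0.298 without it at DIV1. In the 3 DIV5 controls left without libraries 1 and 5, miR-132-3p over miR-212-3p was 4.86 and miR-132-5p over miR-212-5p 0.430, while miR-132-3p over miR-132-5p was 13 and miR-212-3p over miR-212-5p 1.15.

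None of these ratios differed between groups past the threshold. In 16 exact permutation tests (4 ratios in 4 comparisons, two-sided, 5 libraries against 5, smallest possible p = 0.00794), the lowest p was 0.0635, for miR-132-3p over miR-212-3p at DIV5 against DIV1 with GDNF (log2 difference 0.45, SE 0.212), with an adjusted p of 0.254. A single ratio at the smallest possible p would not have passed after adjustment over 16 tests, so these tests had little power. The miR-212-3p over miR-212-5p ratio had a log2 difference of -0.73 between DIV5 and DIV1 with GDNF (SE 0.323, exact permutation p = 0.0714, adjusted p = 0.254). The miR-132-3p over miR-132-5p ratio had differences of -0.44 with GDNF (SE 0.196, exact permutation p = 0.0794) and -0.30 without it (SE 0.216, exact permutation p = 0.214) between DIV5 and DIV1. The ranges of all 4 ratios overlapped in all 4 comparisons.

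In DIV5 controls the miR-132 arms varied together and apart from the miR-212 arms. There the SD of log2 CPM was 0.772 for miR-132-3p and 0.734 for miR-132-5p, while the SD of their log2 ratio was 0.133. The log2 ratio of miR-132-3p over miR-212-3p had an SD of 0.768 in the same libraries. In control libraries 1 and 5 the miR-132-3p over miR-132-5p ratio was 13.7 and 12.4, inside the range of the other DIV5 controls (11.4 to 14.4), whereas miR-132-3p over miR-212-3p was 13.9 and 11.2, against 4.11 to 5.55 in the other 3. Without libraries 1 and 5 the SDs of these log2 ratios were 0.176 and 0.221 (n = 3), so the wide contrast rested on those libraries. The other groups did not all show such a contrast. With GDNF at DIV5 the SDs of the same ratios were 0.217 and 0.344. In DIV1 controls the miR-212 arms had SDs of 0.594 (3p) and 0.432 (5p) and their log2 ratio an SD of 0.915, and the miR-132 arms had SDs of 0.287 and 0.440 and their ratio 0.465. With GDNF at DIV1 the SD was 0.327 for miR-132-3p over miR-212-3p, against 0.380 between the miR-132 arms and 0.622 between the miR-212 arms. These are descriptions over 5 libraries, with no test.

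**Figure D4:**
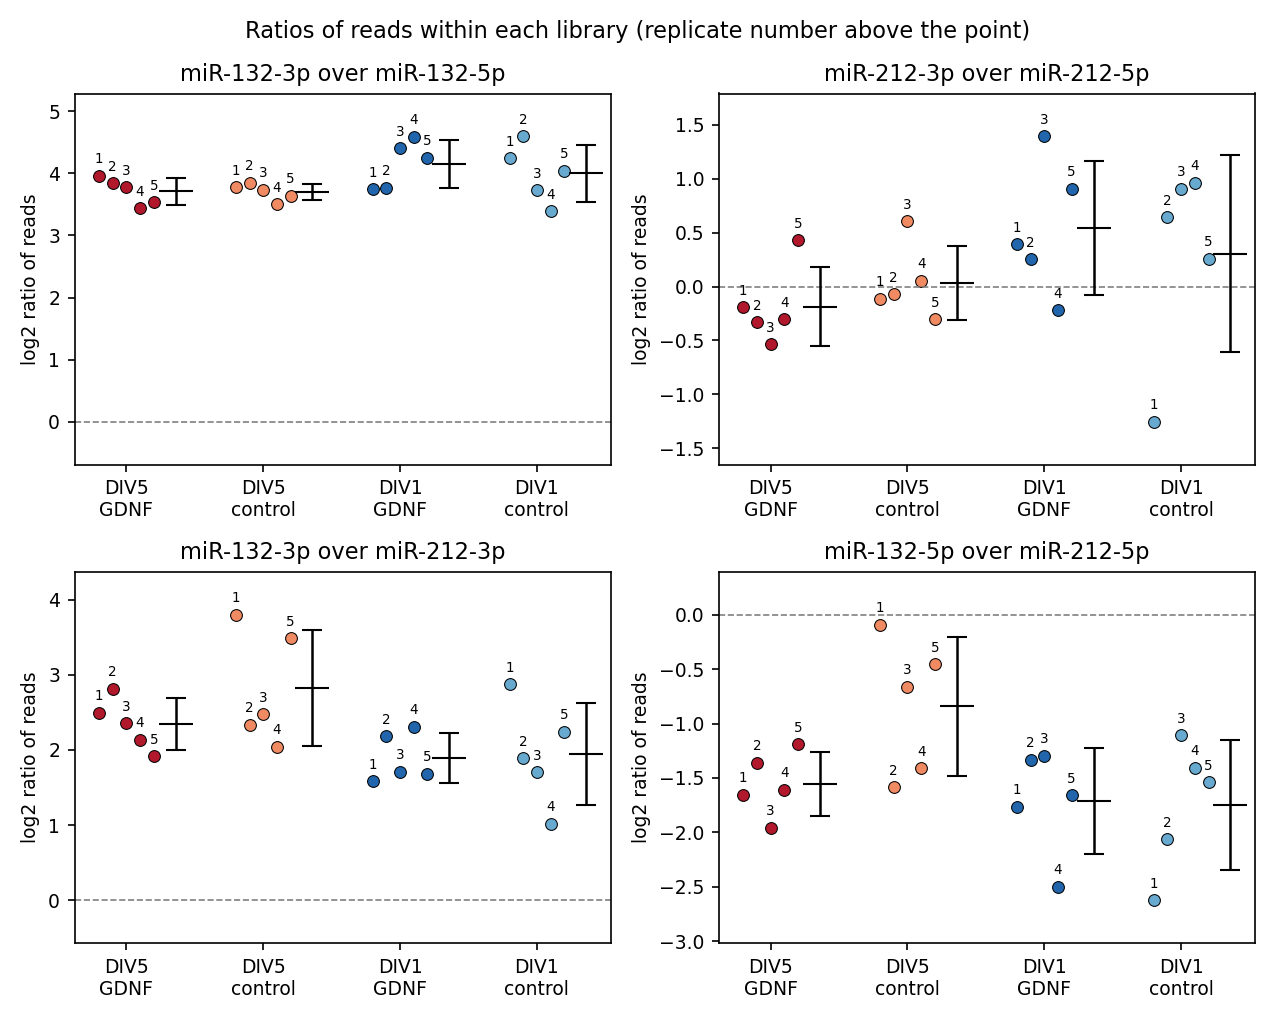
log2 ratio of reads (pseudocount 0.5) between the arms of each hairpin (top) and between the hairpins on each side (bottom), by group; points are libraries with their replicate number, the bar beside them is the mean ± SD of 5 and the dashed line is equal reads. miR-132-3p over miR-132-5p lies far above equality in 20 of 20 libraries, miR-212-3p over miR-212-5p lies around it, and DIV5 control libraries 1 and 5 are high for miR-132 over miR-212.

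Since the 3p arms share a seed, their summed level is that of the reads with this seed. How well each sequence enters a library was not measured, so the sum and the shares in it are of reads and not of molecules. The sum was 735.1 ± 111 CPM with GDNF and 1101 ± 607 CPM without it at DIV5, against 269.3 ± 91 CPM with GDNF and 246.4 ± 43.7 CPM without it at DIV1 (SD, n = 5 each). Without DIV5 control libraries 1 and 5 the DIV5 controls were at 740.8 ± 100.2 CPM (SD, n = 3). miR-132-3p made up a mean of 83.4% of it with GDNF and 86.8% without it at DIV5, and 78.7% in each DIV1 group. The lowest share in a library was 67%, in a DIV1 control, and the highest 93.3%, in a DIV5 control that stood apart; without those 2 libraries the mean share in DIV5 controls was 82.9%.

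The miRNAs whose pattern over the 20 libraries was most like that of miR-132-3p were found by the root mean square difference of centred log2 CPM, over the 438 miRNAs that averaged 10 CPM or more. The nearest outside the pair were miR-770-3p (0.35), miR-128-3p (0.45), which is a neuron marker, miR-194-5p (0.48), miR-31-5p (0.49) and miR-382-3p (0.49), while miR-132-5p ranked 2 (0.36), miR-212-5p 9 (0.51) and miR-212-3p 25 (0.63). miR-770-3p had log2 changes of 1.62 with GDNF and 2.30 without it at DIV5 against DIV1. The nearest to miR-212-3p were miR-124-3p (0.34), a neuron marker, miR-1224-5p (0.37) and miR-204-5p (0.37), with miR-212-5p at rank 87, miR-132-3p at 91 and miR-132-5p at 161. miR-124-3p changed by 1.31 with GDNF and 1.36 without it. The order rested partly on DIV5 control libraries 1 and 5: over the other 18 libraries the nearest to miR-132-3p outside the pair were miR-128-3p (0.28), miR-204-5p (0.30) and miR-383-5p (0.30), with miR-132-5p at rank 10, miR-212-5p at 17 and miR-212-3p at 21. For miR-212-3p miR-124-3p was nearest there too, with miR-132-3p at rank 24, miR-132-5p at 58 and miR-212-5p at 118. All these miRNAs share the libraries and their depth, and the order is a description.

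Other miRNAs known from neurons for regulation by activity, CREB or MEF2 changed with the day in both directions. That list is miR-134, miR-138, miR-184, miR-188, miR-219a, miR-329, miR-381 and miR-485, with 18 arms in the files and 14 tested. It was chosen from general knowledge, but with earlier results of these data known. Its values beside those of all tested miRNAs are therefore a description. At DIV5 against DIV1, 6 of 14 were called higher and 3 lower with GDNF (median log2 change 0.40, against 0.0017 for all 542), and 6 higher and 3 lower without it (median 0.55, against 0.10). Of all 542, 25.1% were called higher and 27.3% lower with GDNF, and 31.4% higher and 29.3% lower without it. Without DIV5 control libraries 1 and 5, 13 arms of the list were tested, of which 7 were called higher and 4 lower with GDNF (medians 0.46, against 0.038 for all 530 then tested) and 4 higher and 2 lower without it (0.45, against 0.034). miR-381-3p, the most abundant of them with a mean of 4284 CPM, rose by a log2 value of 1.53 with GDNF and 1.02 without it. miR-134-5p, known for restraining dendritic spine size, had 540 CPM on average and log2 values of 0.38 and 0.60. miR-138-2-3p, an opposite arm of miR-138, was called higher under both treatments (edgeR adjusted p = 0.0456 with GDNF and 0.0453 without it). The arms called lower under either treatment were miR-138-1-3p, miR-219a-1-3p and miR-219a-2-3p. The opposite arms of miR-138 therefore did not change in the same direction. These arms belong to 2 miRNAs whose main arms, miR-138-5p and miR-219a-5p, had 0 reads in all 20 libraries. RefSeq has each of those main arms at 2 hairpins, and how reads that match more than 1 place were counted is not given in the sources used here, so their counts of 0 are uncertain. It also has miR-128-3p and miR-129-5p at 2 hairpins. Of these, miR-128-3p had a mean of 5537 CPM and miR-129-5p had at most 25 reads in a library. The part of copy number in these counts was not tested. None of the 14 was called for GDNF at DIV5 or at DIV1 by edgeR.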

How the data were processed

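20 small RNA libraries of midbrain cultures were made with a TruSeq protocol from Tri-reagent RNA, per the labels' protocols. The authors deposited raw counts per mature miRNA, 1 file per library. The submitters' processing notes name cutadapt 1.8.1, STAR 2.4.1d, HTSeq (version not given) and genome build mm10. The miRNA annotation is not given in the sources used here. Reads without a feature, 9.51% to 22.6% of a library, were left out of library totals.

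The 4 arms were found by name. The fit used edgeR 4.0.16 in R 4.3.3 (filterByExpr, TMM, glmQLFit with robust estimation, glmQLFTest) over all 20 libraries, with 1 coefficient per group and 5 contrasts. p-values were adjusted by Benjamini-Hochberg over the 542 tested of 1581 detected miRNAs, and a miRNA was called at an adjusted p below 0.05. A log2 SE is the size of the change divided by the square root of its F statistic, and 95% intervals use it. Ratios of reads (pseudocount 0.5) were compared by two-sided exact permutation tests. The fit was tested on simulated data first. Reads carry no molecular identifiers, so counting error is understated where molecules were copied. No 2 libraries of a group agreed within sampling noise (lowest chi-square per degree of freedom 10.3).

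The named miRNAs were the 4 arms, the 5 nearest to miR-132-3p and the 3 nearest to miR-212-3p by likeness (mean 10 CPM or more, prior count 0.5), and the 2 most abundant arms of the activity list. The arms that fell in that list, miR-138-2-3p, miR-182-5p and the marker miRNAs are named besides. The members and lists were chosen with earlier results of these data known. Alternatives were DESeq2 1.42.0, limma 3.58.1 voom, other scalings and filters, a replicate block, subsets of libraries and each library left out. Same-numbered libraries deviated together at DIV5 (r between 0.217 and 0.642 in 5 pairs, over 439 miRNAs). Only 3 of 5 GDNF libraries there had their highest r with the control of their own number. At DIV1 r was between 0.0747 and 0.648, and 2 of 5 did so. Whether the numbers pair libraries on either day was therefore not settled. Promoters of the host gene were not analysed here.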

Additional observations from a re-analysis of the deposited data

Results flagged for a closer look

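In each group of 5 libraries the highest and lowest values of the 4 arms and of the 4 ratios were compared with the rest by Dixon's criterion. Of 32 such groups of values, 2 held a library far from the others, and chance gives about 5%. miR-132-3p had 266.4 CPM in DIV1 control library 5, where the other DIV1 controls had 157 to 187.8 CPM. The reads of miR-212-3p over those of miR-212-5p had a ratio of 1.35 in DIV5 GDNF library 5, where the other 4 had 0.689 to 0.875. DIV5 control libraries 1 and 5, which were both high for miR-132, did not meet the criterion. It looks for 1 value far from the rest, so 2 high libraries in a group can hide each other. Not meeting it therefore does not show that they lie with the other controls.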

How the results depend on the processing

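Of 888 values of the 4 arms and ratios under alternatives, 847 kept their direction and side of the threshold or, where untested, moved by less than the spread between replicates. The day changes of all 4 arms stayed positive and called in every alternative, except miR-212-3p with GDNF in DIV5 replicates 1 and 2 (0.86, edgeR adjusted p = 0.0547). No GDNF effect, interaction or ratio passed in any alternative. For ratios some alternatives could not pass. Pooled counts and DIV5 replicates 1 and 2 alone had no test of ratios. The block test of ratios (signs flipped within same-numbered pairs) had too few libraries for a p below 0.05. So had DIV5 replicates 3 to 5 alone for GDNF at DIV5. The other 40 of the 888 values were changes of sign of uncalled values, and their cause was not tested. For GDNF at DIV5, the replicate block without DIV5 control libraries 1 and 5 (added after seeing the data) gave log2 0.063 for miR-132-3p and 0.074 for miR-132-5p. limma voom gave 0.0045 and DIV5 replicates 3 to 5 gave 0.27 for miR-212-3p, and DIV5 replicates 1 and 2 gave -0.37 for miR-212-5p. For the interaction, that block gave 0.0028 for miR-132-3p and 0.14 for miR-132-5p, which was 0.083 without DIV5 control libraries 1 and 5 alone; DIV5 replicates 3 to 5 gave 0.17 for miR-212-3p and replicates 1 and 2 gave -0.18 for miR-212-5p. For GDNF at DIV5 the log2 ratio of miR-132-3p over miR-132-5p was -0.042 in DIV5 replicates 3 to 5, and that of miR-132-3p over miR-212-3p was 0.062 without DIV5 control libraries 1 and 5.

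With 1 library left out at a time, log2 values for GDNF at DIV5 were -0.83 to -0.24 for miR-132-3p, -0.81 to -0.27 for miR-132-5p and -0.11 to 0.039 for miR-212-3p. At DIV1 they were -0.094 to 0.24 for miR-132-3p, -0.22 to 0.043 for miR-132-5p, -0.12 to 0.29 for miR-212-3p and -0.29 to 0.034 for miR-212-5p, and the interaction of miR-212-3p was -0.32 to 0.092. Log2 ratios for GDNF at DIV5 were -0.051 to 0.079 for miR-132-3p over miR-132-5p. At DIV1 they were -0.00042 to 0.30 for that ratio, -0.15 to 0.43 for miR-212-3p over miR-212-5p, -0.28 to 0.18 for miR-132-3p over miR-212-3p and -0.18 to 0.24 for miR-132-5p over miR-212-5p, which was -0.042 to 0.26 at DIV5 against DIV1 with GDNF.

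The replicate block within each day changed no call of the 4 arms: for GDNF at DIV5 it gave -0.50 for miR-132-3p (adjusted p = 0.345) and -0.51 for miR-132-5p (adjusted p = 0.375). Over all miRNAs, GDNF at DIV5 gave 1 call, against 26 with DESeq2, 13 with a filter at 10 CPM, 3 with the block, 4 with the block without DIV5 control libraries 1 and 5, 2 in each DIV5 subset, 0 from the libraries of the 2 groups alone and 0 without DIV5 control libraries 1 and 5. That block gave 2 calls at DIV1 and 5 for the interaction, where DIV5 replicates 3 to 5 and leaving out DIV5 control library 2 gave 1 each. At DIV1 miR-132-5p had 6 to 16 reads a library, which limits its ratios.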
